A study of Homo sapiens with 18 samples.

Results

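ORAI3, LIF, PANK1, TRAF4 and SERTAD1 are 5 genes described as targets of the tumour suppressor p53, and they are considered here among the 23368 gene rows that were counted in SJSA osteosarcoma cells. They were selected on these data, as p53 targets with higher levels after Nutlin plus continuous palbociclib than after Nutlin alone. The comparison that chose them is therefore given as a description, without a test, and the question asked was whether palbociclib without Nutlin also raises them. SJSA cells are 1 established cell line with amplification of both MDM2 and CDK4, so each group is a set of cultures of the same line. Nutlin (Nutlin-3a) is an antagonist of MDM2, and palbociclib (PD0332991) inhibits the kinases CDK4 and CDK6. RNA was sequenced from 18 libraries in 6 groups of 3 biological replicates. The DMSO group received solvent only, and the Nutlin group received 20 µM Nutlin for 6 h. The PD24 group received 10 µM palbociclib for 24 h, after which the drug was removed for the last 6 h, and the PD30 group received 10 µM palbociclib for all 30 h. The N+PD24 and N+PD30 groups followed these schedules with Nutlin added in the last 6 h. The labels give 20 µM Nutlin for every Nutlin library, whereas the scheme of the study also shows a lower dose.

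The transcription factor p53 is kept low by MDM2, which binds it and marks it for degradation, and an MDM2 antagonist lets p53 accumulate and activate its target genes. CDK4 and CDK6, with D-type cyclins, phosphorylate the retinoblastoma protein and so release E2F factors, which drive the genes of DNA replication and mitosis. A CDK4/6 inhibitor holds cells before S phase. The 5 genes act in unrelated processes. LIF is a secreted cytokine, ORAI3 is a pore subunit of calcium channels in the plasma membrane, PANK1 is a pantothenate kinase that starts coenzyme A synthesis, TRAF4 is an adaptor protein, and SERTAD1 is a nuclear cofactor that binds CDK4.

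Depth lay between 12704845 counts (N+PD30 replicate 1) and 40231041 counts per library, with 29608936 as the median, and counts per 1000000 (CPM) were taken over each library's own total. Every library correlated best with its own group. A list of 12 proliferation genes summed to 3879 to 4175 CPM in DMSO and 2029 to 2734 CPM in Nutlin, against 97.1 to 127.9 CPM in PD24, 81.9 to 110.8 CPM in PD30, 55.5 to 70.4 CPM in N+PD24 and 59.5 to 73.9 CPM in N+PD30. These genes fell with palbociclib in each group that received it, beside each result on the 5 genes, and their part in those results was not tested. In bulk RNA, fewer cells of a kind and less RNA per cell cannot be told apart. The osteoblast-lineage genes summed to 2847 to 6495 CPM over 9 genes, with COL1A1 at a mean of 1584 to 2855 CPM over the groups and SP7, IBSP and BGLAP at or near 0. Markers of blood, epithelial and endothelial cells together reached 4.42 to 17.6 CPM over 8 genes.

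Palbociclib alone had a different effect on different members of the set. With palbociclib for all 30 h, ORAI3, LIF and PANK1 rose, by 4.22-fold, 2.31-fold and 1.50-fold, TRAF4 fell by 0.52 on the log2 scale, and SERTAD1 did not pass the test. A call here means a Benjamini-Hochberg adjusted p under 0.05 in edgeR's quasi-likelihood test over all genes. Among 15125 genes tested in PD30 against DMSO, 22.9% were called higher and 25.4% lower, beside 3 and 1 of the 5 members. With palbociclib removed after 24 h, ORAI3 and LIF rose, whereas PANK1 and TRAF4 fell. In PD24 against DMSO 17.5% of 15094 genes were called higher and 20.8% lower, beside 2 and 2 of the 5 members. The libraries of both comparisons took no part in choosing the genes.

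**Figure D1:**
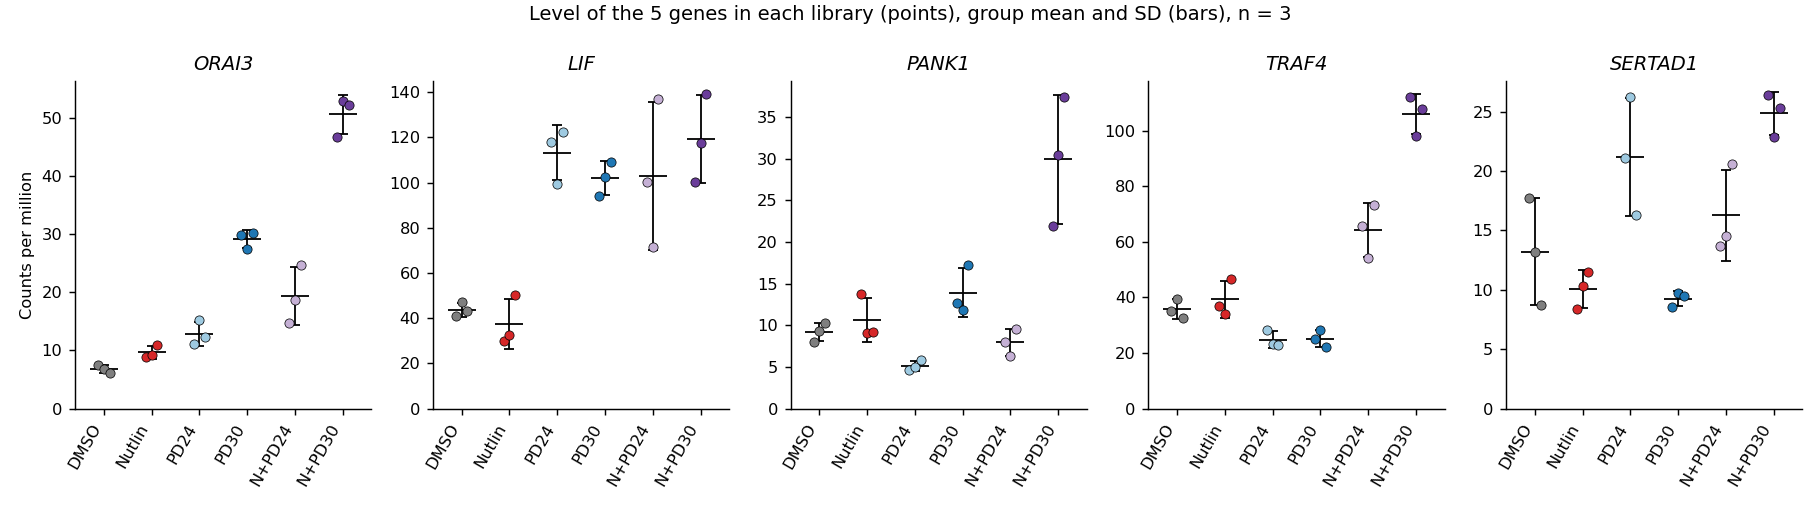
Level of each of the 5 genes in CPM (vertical axis, starting at 0) in the 6 groups, with 1 point per library and bars for the mean and SD of 3 replicates. N+PD30 has the highest mean for every gene, PD30 and PD24 lie above DMSO for ORAI3 and LIF, and both lie below DMSO for TRAF4.

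ORAI3, which lies on chr16:30960389-30967782 (plus strand, GRCh37), encodes 1 of the 3 ORAI subunits, the pore-forming proteins through which calcium enters cells. ORAI3 measured 7.51, 6.80 and 6.21 CPM in the 3 DMSO libraries and 8.95, 9.16 and 10.9 CPM with Nutlin. It measured 11.0, 15.2 and 12.4 CPM in PD24 and 29.8, 27.4 and 30.3 CPM in PD30. Each step from DMSO to Nutlin, PD24 and PD30 was without overlap between neighbouring groups. With both drugs ORAI3 reached 14.8, 18.7 and 24.7 CPM in N+PD24 and 46.8, 52.9 and 52.3 CPM in N+PD30. The N+PD24 libraries overlapped those of PD24 at the low end, and the N+PD30 libraries stood above all others. The difference was 2.08 on the log2 scale for PD30 against DMSO (SE 0.116, edgeR adjusted p = 7.16e-07) and 0.93 for PD24 against DMSO (SE 0.168, edgeR adjusted p = 0.00251). PD30 also exceeded PD24 by 1.14 on the log2 scale (SE 0.148, edgeR adjusted p = 0.00100), so ORAI3 was 2.21-fold higher where palbociclib was kept. In PD30 against PD24, 12.2% of 15171 genes were called higher and 12.9% lower. The annotation has a lncRNA (ENSG00000261487) on the same strand that shares 52.9% of the exon bases of ORAI3, and reads over that stretch cannot be assigned to either gene by position.

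LIF, on chr22:30636442-30642748 (minus strand, GRCh37), encodes leukaemia inhibitory factor, a cytokine of the interleukin-6 family that signals through LIFR and IL6ST to JAK kinases and STAT3. LIF measured 40.8, 46.9 and 43.2 CPM in DMSO and 29.9, 32.4 and 50.0 CPM with Nutlin, and these groups overlapped. It measured 117.9, 99.4 and 122.3 CPM in PD24 and 94.2, 102.4 and 109.2 CPM in PD30. All palbociclib libraries lay above all those without it, and PD24 and PD30 overlapped each other. With Nutlin added, LIF measured 100.3, 71.7 and 136.9 CPM in N+PD24 and 100.4, 117.7 and 139.3 CPM in N+PD30, and both groups overlapped those with palbociclib alone. The difference was 1.21 on the log2 scale in PD30 against DMSO (SE 0.0923, edgeR adjusted p = 6.24e-06) and 1.40 in PD24 against DMSO (SE 0.107, edgeR adjusted p = 1.44e-05). The schedules differed by -0.19 on the log2 scale in PD30 against PD24, with a 95% interval from -0.43 to 0.054 (edgeR adjusted p = 0.229). The annotation places the antisense genes LIF-AS1 and LIF-AS2 over 2.2% and 2.1% of the LIF exon bases.

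PANK1, on chr10:91339254-91404999 (minus strand, GRCh37), encodes a pantothenate kinase, the enzyme of the first step of coenzyme A synthesis, and its introns hold MIR107. PANK1 measured 7.97, 9.36 and 10.2 CPM in DMSO, 13.7, 9.03 and 9.18 CPM with Nutlin, 4.62, 4.93 and 5.79 CPM in PD24 and 12.6, 11.9 and 17.3 CPM in PD30. DMSO and Nutlin overlapped, every PD24 library lay below every DMSO library, and every PD30 library lay above. In the combinations it measured 7.95, 6.36 and 9.60 CPM in N+PD24 and 22.0, 30.4 and 37.4 CPM in N+PD30. PANK1 was called in opposite directions under the 2 schedules. It fell by 0.82 on the log2 scale in PD24 against DMSO (SE 0.158, edgeR adjusted p = 0.00366) and rose by 0.58 in PD30 against DMSO (SE 0.167, edgeR adjusted p = 0.0167). Without DMSO replicate 1 the rise was 0.49 and its adjusted p 0.0588 by the same edgeR test. PD30 exceeded PD24 by 1.40 on the log2 scale, or 2.64-fold (SE 0.179, edgeR adjusted p = 0.000954).

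TRAF4, on chr17:27071029-27077974 (plus strand, GRCh37), encodes a member of the TRAF family of adaptor proteins, which link surface receptors to kinase signalling. TRAF4 measured 35.2, 39.5 and 32.5 CPM in DMSO and 37.0, 34.0 and 46.6 CPM with Nutlin. It measured 28.3, 23.3 and 22.7 CPM in PD24 and 25.1, 28.2 and 22.2 CPM in PD30. The DMSO and Nutlin groups overlapped, and all 6 libraries with palbociclib alone lay below every DMSO library. With both drugs the order turned, with 65.6, 54.1 and 73.3 CPM in N+PD24 and 112.2, 98.0 and 107.7 CPM in N+PD30, above every library of the other 4 groups. TRAF4 fell by 0.52 on the log2 scale in PD30 against DMSO (SE 0.124, edgeR adjusted p = 0.00678) and by 0.51 in PD24 against DMSO (SE 0.133, edgeR adjusted p = 0.0156). The fall in PD24 had an adjusted p of 0.0803 in edgeR without DMSO replicate 2. The schedules differed by -0.010 on the log2 scale in PD30 against PD24, with an interval from -0.33 to 0.31 (edgeR adjusted p = 0.966). On the other strand, 2 lncRNA genes cover 10.7% and 6.3% of the TRAF4 exon bases.

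SERTAD1, on chr19:40927496-40931899 (minus strand, GRCh37), encodes a SERTA-domain protein that binds CDK4 and acts as a cofactor of E2F-dependent transcription. SERTAD1 measured 17.7, 13.2 and 8.73 CPM in DMSO, the widest spread of the 5 genes in that group relative to the mean, and 8.36, 10.3 and 11.5 CPM with Nutlin. It measured 21.0, 26.2 and 16.3 CPM in PD24 and 8.54, 9.70 and 9.48 CPM in PD30. Both palbociclib groups overlapped DMSO, while every PD24 library lay above every PD30 library. In the combinations SERTAD1 measured 13.7, 14.5 and 20.6 CPM in N+PD24 and 26.4, 22.9 and 25.3 CPM in N+PD30. The estimate in PD30 against DMSO was -0.53 on the log2 scale (SE 0.226, edgeR adjusted p = 0.0791), and the adjusted p was 0.00274 without DMSO replicate 3. The estimate in PD24 against DMSO was 0.70 (SE 0.266, edgeR adjusted p = 0.0643), and the adjusted p was 0.0259 without DMSO replicate 1 and 0.0352 without PD24 replicate 3. The schedules themselves differed, with SERTAD1 lower in PD30 than in PD24 (log2 difference -1.23, SE 0.191, edgeR adjusted p = 0.00226).

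**Figure D2:**
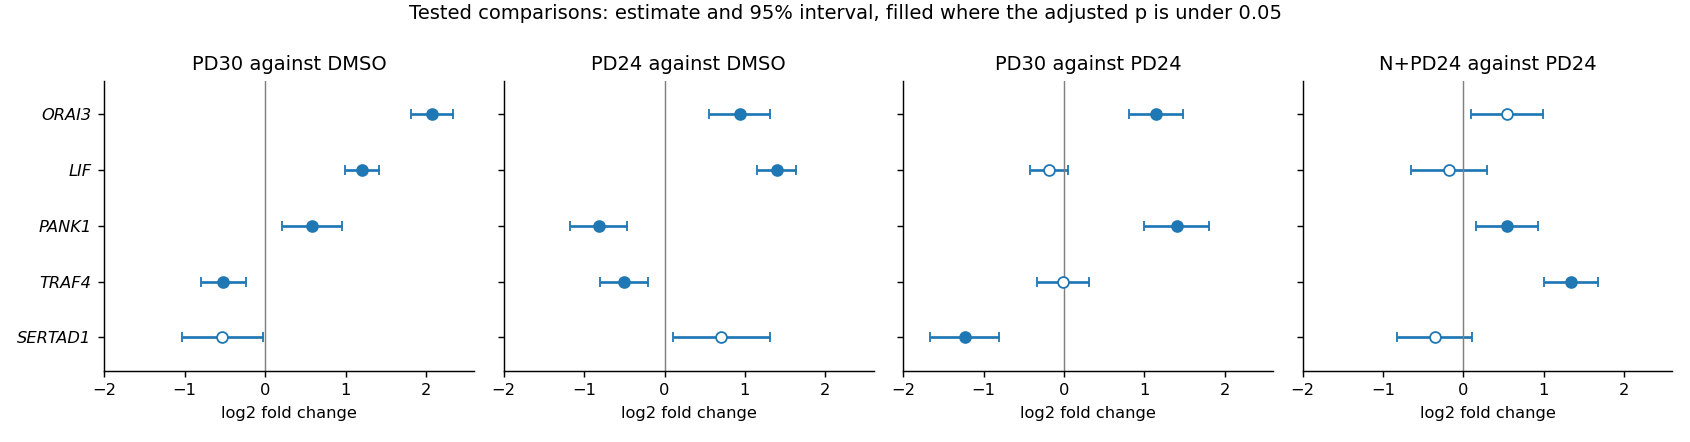
Estimated log2 fold change (horizontal axis) with its 95% interval for the 5 genes in the 4 tested comparisons, filled where the adjusted p over all genes is under 0.05. ORAI3 and LIF lie above 0 in both comparisons of palbociclib with DMSO, TRAF4 lies below 0 in both, and PANK1 changes side with the schedule.

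The comparison that chose the genes, N+PD30 against Nutlin, gave log2 differences of 2.35 for ORAI3, 1.63 for LIF, 1.45 for PANK1, 1.40 for TRAF4 and 1.26 for SERTAD1. In this comparison 29.7% of 15721 genes had every N+PD30 library above every Nutlin library, as all 5 members do by their selection. On the list of p53 targets used here, TXNIP at 1.36 also lay above SERTAD1 and is not a member, a gene singled out after its value was seen, and the next genes below SERTAD1 were PGPEP1 at 1.24, GADD45A at 1.16 and PMAIP1 at 1.14. Nutlin alone, present for 6 h, gave smaller differences. The Nutlin libraries also served to choose the members, and that choice favours genes that are low with Nutlin. The size of these differences is thus partly set by the choice. The difference of Nutlin from DMSO was 0.62 on the log2 scale for ORAI3, whose groups did not overlap, and 0.34 for PANK1, 0.26 for TRAF4, -0.10 for LIF and -0.27 for SERTAD1, all with overlapping groups. The median over all genes in Nutlin against DMSO was 0.028 with TMM factors and -0.097 with total counts. Over the 122 other genes of the p53 target list tested there, the median was 1.35 with TMM factors. The share of all genes whose Nutlin and DMSO groups do not overlap was not counted, so the separation of ORAI3 alone is only described. That the 5 genes are p53 targets is taken from published lists.

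Set side by side, the response to palbociclib without and with Nutlin was of the same direction for ORAI3 and LIF and of opposite direction for TRAF4. For ORAI3 the log2 difference was 2.08 in PD30 against DMSO and 2.35 in N+PD30 against Nutlin, and for LIF it was 1.21 and 1.63. PANK1 went from 0.58 without Nutlin to 1.45 with it. TRAF4 went from -0.52 to 1.40, a gap of 1.92, and SERTAD1 went from -0.53 to 1.26, a gap of 1.80. The responses with Nutlin are positive because the members were chosen for it, so these gaps carry no test. For the schedule with removal, whose own libraries of N+PD24 were not used in the choice although Nutlin was, the log2 differences without and with Nutlin were 0.93 and 0.91 for ORAI3 and 1.40 and 1.42 for LIF. They were -0.82 and -0.37 for PANK1, -0.51 and 0.70 for TRAF4, and 0.70 and 0.63 for SERTAD1. The values with Nutlin are on the log2(CPM + 1) scale without TMM factors, unlike those without Nutlin, so small gaps between them are not read. With TMM factors they were 0.98 for ORAI3, 1.49 for LIF, -0.30 for PANK1, 0.77 for TRAF4 and 0.70 for SERTAD1. TRAF4 was thus lower with palbociclib and higher with palbociclib plus Nutlin under both schedules, while for SERTAD1 the estimates had opposite signs with continuous drug and the same sign with removal.

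**Figure D3:**
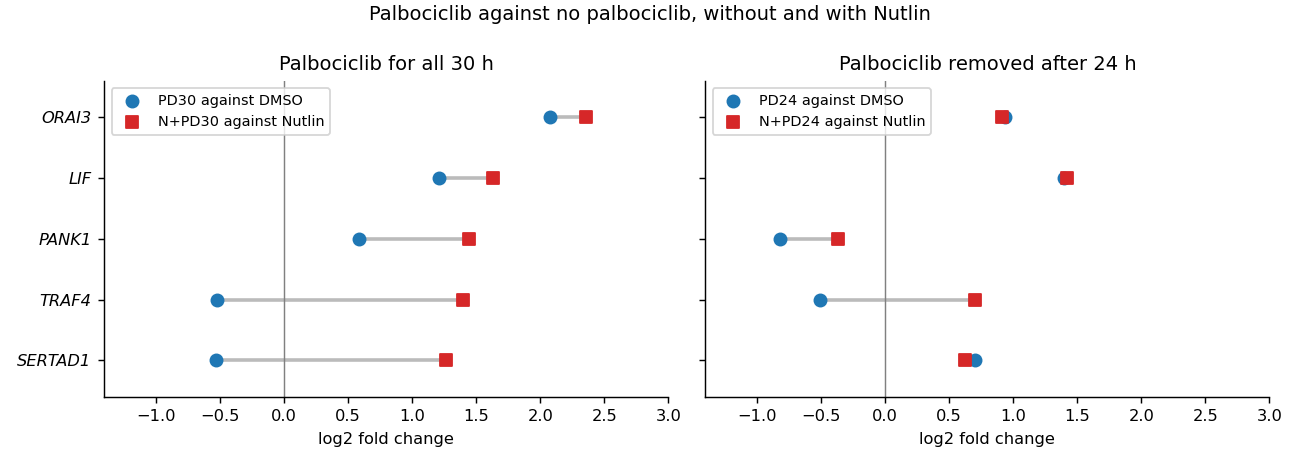
Log2 fold change of palbociclib against no palbociclib (horizontal axis) for the 5 genes without Nutlin (blue circles) and with Nutlin (red squares), for the 30 h schedule on the left and the schedule with removal on the right, whose red squares are on the log2(CPM + 1) scale without TMM factors. The 2 marks of TRAF4 lie on opposite sides of 0 in both panels, and those of LIF and ORAI3 lie on the same side.

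Whether Nutlin raises the genes in cells that had received palbociclib was tested in N+PD24 against PD24, with limma on log2(CPM + 1), since none of these libraries chose the members. TRAF4 rose by 1.34 on the log2(CPM + 1) scale (SE 0.146, limma adjusted p = 0.000223), which is 2.53-fold on a scale that understates the change of low genes, and PANK1 rose by 0.54 (SE 0.170, limma adjusted p = 0.0319). Each N+PD24 library of both genes lay above each PD24 library. The ORAI3 difference was 0.54 with overlapping groups (SE 0.197, limma adjusted p = 0.0577). With the replicate number as a block, which pairs the libraries here, the limma adjusted p of ORAI3 was 0.0150, and it was 0.0160 without N+PD24 replicate 1 and 0.0491 without PD24 replicate 2. LIF differed by -0.18 with an interval from -0.65 to 0.29 (limma adjusted p = 0.541) and SERTAD1 by -0.36 with an interval from -0.83 to 0.11 (limma adjusted p = 0.206). Among 14897 genes 11.0% were called higher and 27.4% lower, beside 2 members called higher. With edgeR on the reads recovered from the N+PD24 columns 3 members were called higher, TRAF4 at 1.52, PANK1 at 0.77 and ORAI3 at 0.73 (edgeR adjusted p = 5.21e-05, 0.0101 and 0.0139). The share of all genes called was not counted in this edgeR fit. The call of PANK1 was lost when N+PD24 replicate 1 or 3 or PD24 replicate 1 or 2 was left out, with limma adjusted p values of 0.0594, 0.104, 0.101 and 0.0817. The median of all genes was -0.10 on this scale and 0.028 with TMM factors, a shift that moved ORAI3 to 0.68 with a limma adjusted p of 0.0164. N+PD30 against PD30 shares libraries with the choice of the genes, and its log2 differences were 2.17 for TRAF4, 1.52 for SERTAD1, 1.20 for PANK1, 0.89 for ORAI3 and 0.32 for LIF, whose groups alone overlapped.

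In the order of group means, ORAI3 ran from DMSO through Nutlin, PD24, N+PD24 and PD30 to N+PD30, and only PD24 and N+PD24 overlapped among neighbours. LIF had 2 levels, a lower one in Nutlin and DMSO (means of 37.4 and 43.7 CPM) and a higher one in the 4 palbociclib groups (means of 101.9 to 119.1 CPM), with overlap inside each. PANK1 ran from PD24 (5.11 ± 0.608 CPM, SD, n = 3) to N+PD30 (29.9 ± 7.72 CPM, SD, n = 3). Between them lay N+PD24, DMSO, Nutlin and PD30, whose neighbours in this order overlapped. PD24 and N+PD30 at the ends stood apart from them. TRAF4 was lowest in PD24 and PD30, which overlapped, then in DMSO and Nutlin, which overlapped, and was separate in N+PD24 (64.3 ± 9.67 CPM, SD, n = 3) and in N+PD30 (106.0 ± 7.25 CPM, SD, n = 3). SERTAD1 was lowest in PD30 (9.24 ± 0.617 CPM, SD, n = 3) and highest in N+PD30 (24.8 ± 1.81 CPM, SD, n = 3), which overlapped with PD24 (21.2 ± 4.98 CPM, SD, n = 3).

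The other 123 genes of the p53 target list give the surroundings of the set. In PD30 against DMSO, 115 of them were tested, of which 28 were called higher and 37 lower by edgeR, beside 22.9% and 25.4% of all genes, with a median log2 difference of 0.019 against 0.0020 over all genes. Among called genes whose groups did not overlap, the largest falls were in E2F7, a repressor of cell cycle genes (-3.93), KITLG, the ligand of the KIT receptor (-2.86), the chemokine CX3CL1 (-2.66) and SAC3D1, a gene linked to centrosome duplication (-2.31). CX3CL1 had few counts, 34 to 40 per library in DMSO and 4 to 8 in PD30. The largest rises were in MR1, which presents vitamin metabolites to T cells (1.52), IGDCC4 (1.46), the stress cytokine GDF15 (1.24) and the lipase ABHD4 (1.20). ORAI3 at 2.08 thus lay above every other gene of the list in this comparison, and LIF at 1.21 lay between GDF15 and ABHD4. In PD24 against DMSO 23 of 113 were called higher and 32 lower, beside 17.5% and 20.8% of all genes, with a median of -0.10 against 0.024. The count of higher genes was 12 without DMSO replicate 2 and 15 without DMSO replicate 3. The netrin receptor UNC5B (1.32, SE 0.368, edgeR adjusted p = 0.0202) was among those that rose, and E2F7 (-2.83) and the centriolar gene CCP110 (-2.26) fell most. UNC5B varied widely in PD24, from 2.21 to 6.94 CPM with a median of 3.50 CPM, against 1.65 to 1.82 CPM in DMSO.

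Between the schedules, 16 of 113 genes of the list were called higher in PD30 than in PD24 and 13 lower, beside 12.2% and 12.9% of all genes. With the replicate number as a block these counts were 28 and 22, and the shares of all genes were not counted in that fit. In the fit without a block, leaving out PD30 replicate 3 left 9 called higher. There the lower count was 6 without PD24 replicate 1 or PD30 replicate 1, 7 without PD30 replicate 2 and 8 without PD30 replicate 3. KITLG (-2.51) was among the lower genes, and VWCE (2.05) and MR1 (1.25) were highest. VWCE had few counts, 2 to 10 per library in PD24 and 19 to 28 in PD30. PANK1 at 1.40 and ORAI3 at 1.14 are near the upper end of that range and SERTAD1 at -1.23 is toward the lower. In N+PD24 against PD24, 94 of 119 were called higher and 3 lower by limma, beside 11.0% and 27.4% of all genes, with a median of 0.97 against -0.10 over all genes. CDKN1A, the CDK inhibitor p21, differed most (5.57), followed by the death receptor FAS (3.79), and TXNIP (-1.28) and the small GTPase RAP2B (-0.77) fell. Without N+PD24 replicate 1 the lower count was 5. TRAF4 at 1.34 exceeded the list's median, and PANK1 and ORAI3, both at 0.54, lay under it. With edgeR on the recovered reads 103 were called higher, and the median was 1.23 against 0.039 over all genes. The share of all genes called was not counted in that fit.

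**Figure D4:**
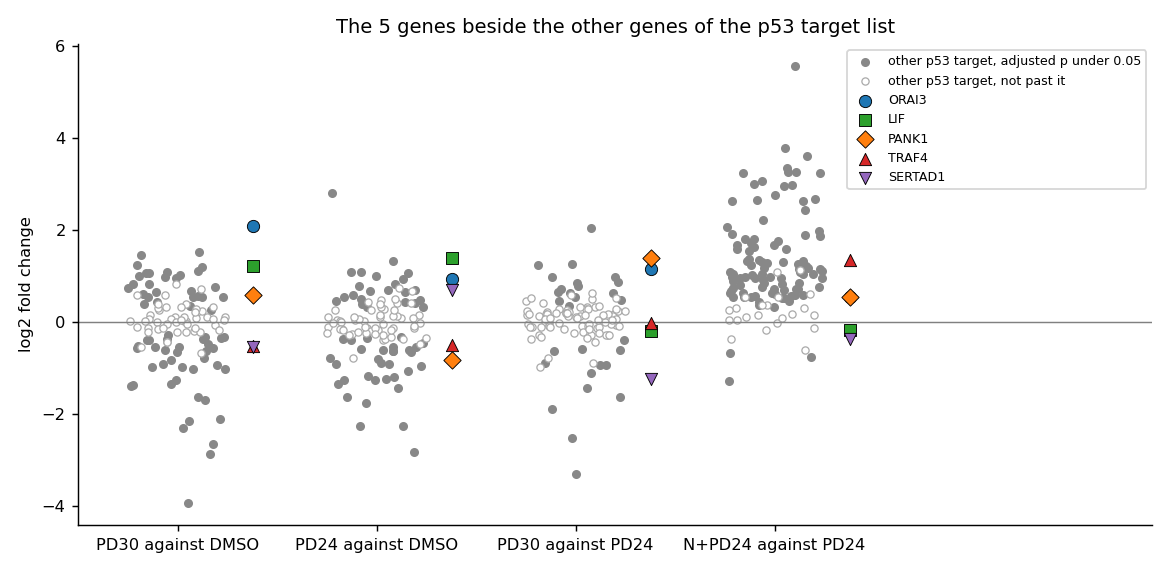
Log2 fold change (vertical axis) of the other genes of the p53 target list (grey points, filled where the adjusted p is under 0.05, spread sideways for display) and of the 5 genes (coloured marks) in the 4 tested comparisons. The list is centred near 0 in the first 3 comparisons, and most of its genes lie above 0 when Nutlin followed palbociclib.

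The families and pathways of the 5 genes held calls in both directions, as did all genes, of which 22.9% were called higher and 25.4% lower in PD30 against DMSO. Of the 4 other genes of store-operated calcium entry, in which the STIM proteins sense the calcium store and open the ORAI pores, 2 were called higher and 1 lower in PD30 against DMSO. STIM2 fell by 0.76 on the log2 scale (edgeR adjusted p = 0.000438). ORAI2 at 0.39 and STIM1 at 0.35 were called higher, and ORAI1 was not called at -0.20 (edgeR adjusted p = 0.380). The ORAI2 call was lost without DMSO replicate 2 or PD30 replicate 2, and the STIM1 call without PD30 replicate 1 or 2. Each of these differences was smaller than the 2.08 of ORAI3. In the LIF receptor pathway, 1 of 5 genes was called higher and 3 lower in PD30. The receptor LIFR fell by 1.03 in PD30 and by 0.95 in PD24 against DMSO (edgeR adjusted p = 0.000471 and 0.000386), opposite to its ligand. SOCS3, a feedback inhibitor that STAT3 activates, fell by 1.15 in PD30 and by 0.74 in PD24 (edgeR adjusted p = 0.00241 and 0.0371), and the call in PD24 was lost when DMSO replicate 1 or 2 or PD24 replicate 2 or 3 was left out. JAK1 at -0.22 and STAT3 at 0.28 passed in PD30 with all libraries and not without DMSO replicate 2 or 3 or PD30 replicate 1 or 2, and the co-receptor IL6ST at -0.18 did not pass (edgeR adjusted p = 0.103).

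Of 6 other genes of coenzyme A synthesis, PANK3, PPCS and COASY rose in PD30 against DMSO, by 0.78, 0.66 and 0.46 on the log2 scale, and PANK2 and PANK4 fell by 0.62 and 0.52. The adjusted p of PANK4 was 0.0134 in edgeR and 0.0534 without PD30 replicate 1. PANK3 and COASY also exceeded PD24 in PD30, by 0.93 and 0.50 (edgeR adjusted p = 0.0103 and 0.0164), as PANK1 did, although the COASY call was lost without PD24 replicate 1 or PD30 replicate 2. Of 6 other TRAF genes, TRAF1 and TRAF2, which bind receptors of the tumour necrosis factor family, fell in PD30 against DMSO by 1.46 and 1.00, and TRAF7 rose by 0.55. TRAF1 instead rose by 1.23 in PD24 against DMSO (edgeR adjusted p = 0.00222), whereas TRAF4 fell under both schedules. TRAF1 had few counts, 44 to 68 per library in DMSO, 13 to 35 in PD30 and 107 to 148 in PD24. In N+PD24 against PD24, where TRAF4 rose, TRAF2, TRAF3, TRAF5 and TRAF6 were lower, by 0.44 to 1.07 in size. In that limma fit 27.4% of all genes were called lower and 11.0% higher, and the median over all genes was -0.10 without TMM factors. The TRAF3 call was lost without N+PD24 replicate 1 or 2 or PD24 replicate 2 or 3.

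Among 9 other SERTA genes and partners of CDK4, 3 were called higher and 5 lower in PD30 against DMSO. SERTAD3 rose by 0.52 and SERTAD4 and CDCA4 fell by 0.50 and 1.87 on the log2 scale, while SERTAD2 was at 0.032 (edgeR adjusted p = 0.782). E2F1 and its partner TFDP1, which SERTA proteins bind in complexes with E2F, fell by 4.74 and 1.11. CCND1 and CDK6, a cyclin and a kinase of the drug's target complex, rose by 0.51 and 0.29. CDK4 fell by 0.31 (edgeR adjusted p = 0.0231), a call lost without DMSO replicate 2 or 3 or PD30 replicate 1. In PD24 against DMSO, E2F1, CDCA4, TFDP1 and SERTAD4 fell as well, by 4.14, 1.17, 1.02 and 0.77. Over all families in PD24 against DMSO, where 17.5% of all genes were called higher and 20.8% lower, 1 of 4 genes of calcium entry was called higher, 2 of 5 of the LIF pathway lower, 1 of 6 of coenzyme A synthesis in each direction, 2 of 6 TRAF genes higher, and 3 and 4 of the 9 SERTA genes and CDK4 partners higher and lower.

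**Figure D5:**
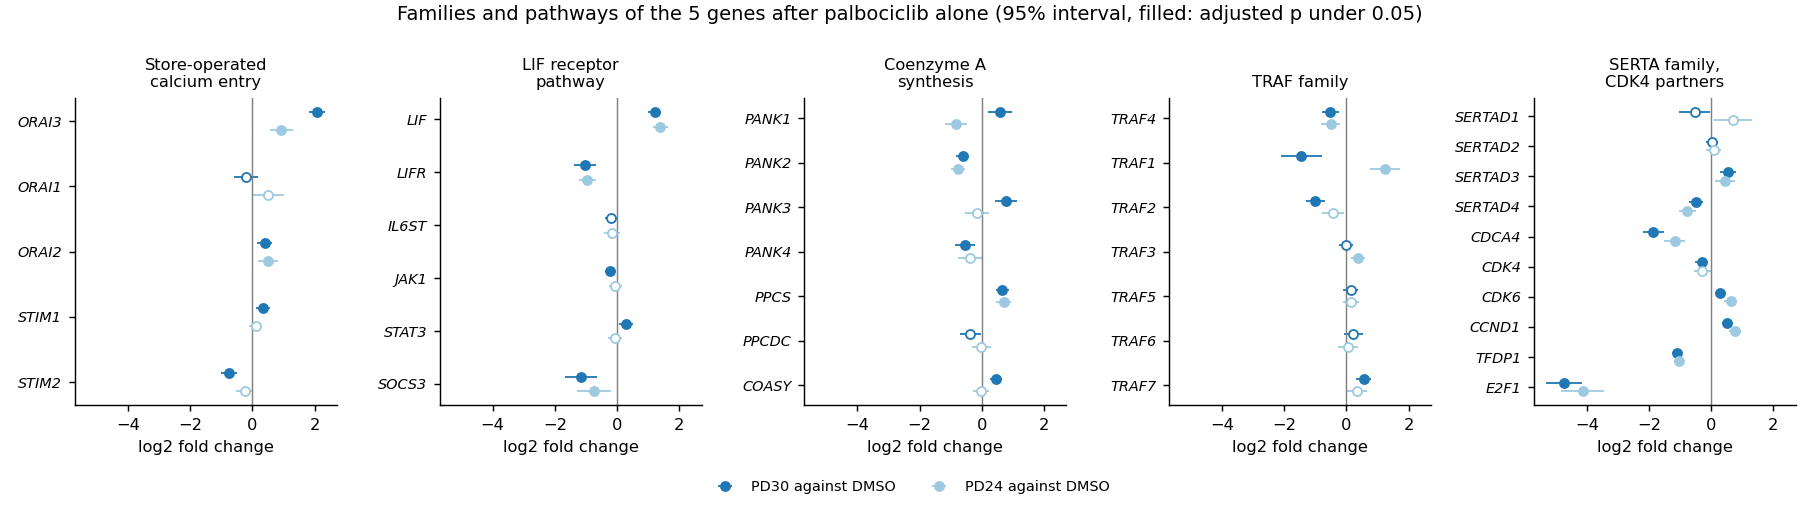
Log2 fold change with 95% interval (horizontal axis) in PD30 (dark blue) and PD24 (light blue) against DMSO for each of the 5 genes, at the top of its panel, and for the other genes of its family or pathway, filled where the adjusted p is under 0.05. ORAI3 and LIF lie above every other gene of their panels, and E2F1 at -4.74 is the lowest value shown.

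The genes whose levels ran most like each member over the 18 libraries were found by Pearson's r of log2(CPM + 1), as a description over libraries that share groups. For ORAI3 these were BBS1, a component of the BBSome of cilia (0.979), the ubiquitin ligase RNF123 (0.974) and GPR108 (0.972). For LIF they were the kinase STK10 (0.954), LOC728431 (0.953) and RNF7 (0.938), and for PANK1 they were the mitochondrial ribosomal gene MRPL49 (0.958), TBX19 (0.926) and DCP1B (0.915). TRAF4 was nearest to PHLDA3 (0.954), which binds membrane phosphoinositides, to KIAA0247 (0.889) and to RNF19B (0.878). SERTAD1 was nearest to DOHH (0.872), GPR172A (0.858) and the deacetylase SIRT6 (0.854). Between the members, r ranged from 0.108 for PANK1 with SERTAD1 to 0.735 for ORAI3 with LIF, below the value of each member with its nearest genes.

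The promoter sequences of genes with different responses to palbociclib alone are shown for ORAI3, which rose, TRAF4, which fell, and PANK1, whose direction depended on the schedule. They are the 250 bases before the annotated start in RefSeq (GRCh38.p14), which has entries for 4 of the 5 members, with 2 starts for PANK1. Capitals mark matches, on either strand, to a p53 motif of 10 letters (the decamer of the p53 response element), to the E2F sites TTTCCCGC and TTTGGCGC, to the CCAAT box and to the cell cycle homology region TTTGAA. No marked matches overlap. Names with coordinates and strand are given before each sequence.
ORAI3, chr16:30948818-30949067, plus strand: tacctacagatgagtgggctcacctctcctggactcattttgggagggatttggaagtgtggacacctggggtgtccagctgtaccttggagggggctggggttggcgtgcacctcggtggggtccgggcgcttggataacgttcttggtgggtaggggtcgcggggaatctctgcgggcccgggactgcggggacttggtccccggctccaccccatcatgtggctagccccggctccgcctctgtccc
TRAF4, chr17:28743761-28744010, plus strand: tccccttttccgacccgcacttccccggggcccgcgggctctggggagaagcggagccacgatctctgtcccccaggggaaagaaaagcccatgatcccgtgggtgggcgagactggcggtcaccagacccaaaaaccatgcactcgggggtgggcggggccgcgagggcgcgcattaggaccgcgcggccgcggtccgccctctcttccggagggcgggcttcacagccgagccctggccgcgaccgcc
PANK1 first start, chr10:89643917-89644166, minus strand: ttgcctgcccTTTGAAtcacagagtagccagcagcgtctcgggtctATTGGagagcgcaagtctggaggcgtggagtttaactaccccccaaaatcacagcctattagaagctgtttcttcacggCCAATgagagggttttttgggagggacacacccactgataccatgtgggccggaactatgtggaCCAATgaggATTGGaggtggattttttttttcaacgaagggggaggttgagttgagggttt
PANK1 second start, chr10:89645243-89645492, minus strand: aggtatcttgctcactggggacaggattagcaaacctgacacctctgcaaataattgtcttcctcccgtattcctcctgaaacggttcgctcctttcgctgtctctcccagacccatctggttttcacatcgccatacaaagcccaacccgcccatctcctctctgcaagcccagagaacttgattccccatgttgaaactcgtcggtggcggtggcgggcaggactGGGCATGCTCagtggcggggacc

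The window of the second PANK1 start held a p53 decamer that begins 23 bases before the start, and 5.57% of 35116 promoters of this length held at least 1. The window of the first PANK1 start held 4 CCAAT boxes and 1 TTTGAA, motifs found in 32.0% and 13.3% of promoters. The ORAI3 and TRAF4 windows held none of the motifs, and the SERTAD1 window, which is not shown, held 1 CCAAT box. The E2F sites, present in 1.39% and 0.55% of promoters, were in no window of the members. The GC content was 64.8% for ORAI3, 71.6% for TRAF4 and 50.4% and 55.6% for the PANK1 windows, against a median of 58.0% over all promoters. A match to these letters is a description of the sequence, and binding was not analysed here.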

How the data were processed

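RNA of SJSA cells was sequenced as single-end reads from TruSeq libraries. For the alignment to hg19 the authors used TopHat with Bowtie 2, and they deposited counts per gene symbol from HTSeq 0.6.0 (minimum quality 10, union mode, reverse-strand setting). Whether the kit keeps the strand is not given in the sources used here, so reads of a gene and of an antisense partner may not be separable. The tables' names call the values variance-stabilized, but the columns hold whole numbers and were used as counts. The N+PD24 columns are the exception, deposited as a signal, the counts divided by 1 size factor per library. Multiplied back, 100% of their values were whole numbers within 0.001. The DMSO and Nutlin libraries appear in 2 tables each with equal values and were used once. The authors' own comparison columns, with fold changes and p-values, and other normalized tables were not used.

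Groups and replicate numbers came from the labels. PD30 against DMSO, PD24 against DMSO and PD30 against PD24 were tested with edgeR 4.0.16 (R 4.3.3), as quasi-likelihood tests on 2 groups with TMM factors and filterByExpr. N+PD24 against PD24 was tested with limma 3.58.1 with an intensity trend on log2(CPM + 1), for genes with at least 0.5 CPM in 3 libraries. P-values were adjusted by Benjamini-Hochberg over all genes tested, and intervals are 95%. The scripts were tested on simulated data. Comparisons that share libraries with N+PD30 against Nutlin were described without a test.

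The members, the gene lists and the rule for named genes were chosen with earlier results of these data known. Named were the members, the genes of their families or pathways, the called p53 targets without overlap at both ends of each tested comparison (4 per end in PD30 against DMSO, 2 in the others), the 3 below the members in the comparison that chose them, and the 3 genes most correlated with each member among those with a mean of at least 1 CPM. Of the genes this rule selects, 1 is not reported here. Alternatives were DESeq2 1.42.0, median-of-ratios factors, total counts, no filter, 1 fit over 5 groups, a replicate block, a pseudocount of 0.5, TMM factors, edgeR on the recovered reads, and leaving out each replicate. Replicate numbers were taken to pair libraries where each of the 3 correlations of same-numbered deviations exceeded 0.1, which held in PD30 against PD24 (0.312, 0.585 and 0.308) and in N+PD24 against PD24 (0.473, 0.529 and 0.215). Gene positions and overlaps came from GENCODE on GRCh37, and promoters from RefSeq on GRCh38.p14.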

Additional observations from a re-analysis of the deposited data

Results flagged for a closer look

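The response to palbociclib differed between the schedules in the test of PD30 against PD24 for 3 members. Of the 15171 genes tested there, 12.2% were called higher and 12.9% lower. ORAI3 was higher where the drug was kept, by 1.14 on the log2 scale, and so was PANK1, by 1.40, whereas SERTAD1 differed by -1.23. The edgeR adjusted p of these differences was 0.00100, 0.000954 and 0.00226, and each stayed under 0.05 in every alternative and with any 1 replicate left out, with highest values of 0.00590, 0.00698 and 0.0116.

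For TRAF4 every library with palbociclib alone lay below every DMSO library, and every library with palbociclib plus Nutlin lay above every Nutlin library. The gap between the log2 differences with and without Nutlin was 1.92 with continuous drug and 1.21 with removal, where the value with Nutlin is on the log2(CPM + 1) scale without TMM factors and the other is an edgeR estimate. For SERTAD1 the gap was 1.80 with continuous drug, from an estimate without Nutlin that did not pass its test. These gaps were not tested, because the libraries with Nutlin include those that chose the members. Groups of 3 are too small for a check of single outlying libraries.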

How the results depend on the processing

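Each called member of PD30 against DMSO, PD24 against DMSO and PD30 against PD24 stayed called with DESeq2, median-of-ratios factors, total counts, no filter, 1 fit over 5 groups and the replicate block. The members called lower numbered 1 to 2 with 1 replicate left out in PD30 against DMSO and 1 to 2 in PD24 against DMSO. SERTAD1 in PD24 against DMSO passed with DESeq2 (adjusted p = 0.0251), in 1 edgeR fit over 5 groups (0.0234) and with the block (0.00452). The replicate numbers did not meet the rule for pairing there, with 1 correlation under 0.1 (0.0794, 0.168 and 0.607). In PD30 against DMSO they did not meet it either (-0.127, 0.373 and 0.334). TRAF4 in PD30 against PD24 turned to 0.0043 in 1 fit over 5 groups and 0.024 with total counts, and ran from -0.11 to 0.089 with 1 replicate left out. LIF in N+PD24 against PD24 ran from -0.41 to 0.055. There, 1 member was called higher without the filter on low values, when PANK1 had a limma adjusted p of 0.0629, and 1 to 2 with 1 replicate left out. With 1 replicate left out, the p53 list genes called higher ran from 12 to 22 in PD24 against DMSO and from 9 to 22 in PD30 against PD24. Such fits called 6 to 13 list genes lower in PD30 against PD24 and 3 to 5 lower in N+PD24 against PD24. In PD30 against PD24 the higher count was 26 in 1 fit over 5 groups, and the replicate block gave 28 higher and 22 lower. The cause of these changes was not tested. The shares of all genes called were not counted in the fit over 5 groups or with the block. The block made ORAI3 a call in N+PD24 against PD24 (adjusted p = 0.0150) and changed no other call of a member in the comparisons whose numbers pair. The lowest count of a member in any library was 117.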
